A study of Mus musculus with 26 samples.

Results

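The BCL2 family genes described here are 10 genes named by symbol, out of 52636 genes counted in each library. They comprise 5 pro-survival genes (Bcl2, Bcl2l1, Mcl1, Bcl2a1b and Bcl2a1d), the pore-forming effectors Bax and Bak1, and the BH3-only genes Bcl2l11, Bid and Bbc3. They were chosen by name and family, with earlier results of these data known. Messenger RNA was measured by RNA sequencing in 26 mouse libraries in 6 groups. Granulocyte-macrophage progenitors (GMPs) and common myeloid progenitors (CMPs) had 4 libraries per genotype each, wild-type or Prss57-/-, and bone marrow-derived mast cells (BMMCs, labelled BMMC-P3) had 5 per genotype. Prss57 encodes the neutrophil serine protease NSP4, and Prss57-/- mice lack it from the germline in every cell, so the deletion is not limited to one lineage. By the study's supplement the strain used here lacks exon 2 of Prss57, and the labels give neither the strain, the age of the mice nor what P3 stands for. GMPs and CMPs were sorted from the bone marrow of female mice and sequenced in a single run, whereas BMMCs were grown from sorted GMPs of male mice in medium with interleukin-3 and stem cell factor and sequenced in another run. A difference between BMMCs and progenitors therefore cannot be told apart from one of culture, sex or run.

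BCL2 family proteins control the permeability of the outer mitochondrial membrane. BAX and BAK, once activated, form pores that release cytochrome c and set off caspase activation. The pro-survival proteins hold BAX and BAK in check, and BH3-only proteins bind the pro-survival proteins or the effectors directly and so promote death. In mast cells, stem cell factor is known to restrain BIM, the product of Bcl2l11, and A1, the product of the Bcl2a1 copies, is known for its induction after engagement of the IgE receptor. MCL1 is known as a survival factor of hematopoietic progenitors. The genes are spread over the mouse genome (GRCm38, GENCODE M21), with Bcl2 at chr1:106538178-106714274, Bcl2l1 at chr2:152780668-152831728, Mcl1 at chr3:95658788-95663176, Bax at chr7:45461697-45466898 and Bak1 at chr17:27019810-27029009. Of the BH3-only genes, Bcl2l11 lies at chr2:128126038-128162547, Bid at chr6:120891930-120916853 and Bbc3 at chr7:16308393-16318205.

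The libraries held 32078404 to 53264762 counted reads in the progenitors and 18627626 to 28647216 in the BMMCs. Levels are given as the deposited normalized RPKM (nRPKM), the count divided by a length constant and a size factor, so that genes can be compared with each other. The size factor is not the library size, and the summed nRPKM differed between libraries. Prss57 stood at 123 to 198 nRPKM in wild-type GMPs and 17.0 to 32.0 in wild-type CMPs. It had at most 25 reads in any Prss57-/- GMP library and 1 read in each Prss57-/- CMP library, as the labels state. In BMMCs it had 2 to 27 reads in wild-type libraries and 0 in Prss57-/- libraries, so the label could be checked there only weakly. The 6 GMP markers summed to 25597 to 37616 nRPKM in GMPs and 3833 to 9617 in CMPs, and the 7 mast cell markers to 24887 to 74640 in BMMCs and 465 to 703 in GMPs. Both progenitor sorts also held transcripts of more mature cells, with summed neutrophil markers of 818 to 5157 nRPKM in GMPs and summed erythroid markers of 508 to 1050 in CMPs. Their part in the results was not tested, and in bulk samples fewer cells of a type and less RNA per cell cannot be told apart. Prss57-/- BMMC library 3 and Prss57-/- CMP library 2 stood apart from their groups. Some results that include them are given with and without them, and the others with them only.

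The pro-survival genes were led by Mcl1 in all 3 cell types. Mcl1, whose protein turns over rapidly, stood at 42.7 to 49.96 nRPKM in wild-type GMPs, 54.3 to 62.0 in wild-type CMPs and 113 to 140 in wild-type BMMCs. Bcl2l1, which encodes BCL-XL, followed with means of 5.70 ± 0.667 nRPKM (SD, n = 4) in wild-type GMPs, 7.57 ± 0.635 in CMPs and 36.8 ± 2.17 (n = 5) in BMMCs. Bcl2, the founding member of the family, stood at 4.55 ± 0.887, 4.83 ± 0.941 and 26.3 ± 1.91 nRPKM in the same 3 groups. In the wild-type groups every Mcl1 value lay above every Bcl2l1 value. Bcl2l1 and Bcl2 overlapped in wild-type GMPs, where Bcl2l1 ranged from 4.80 to 6.41 nRPKM and Bcl2 from 3.28 to 5.34. The Bcl2a1 copies were at or near 0 in every progenitor library, with at most 4 reads, and are described apart.

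**Figure D1:**
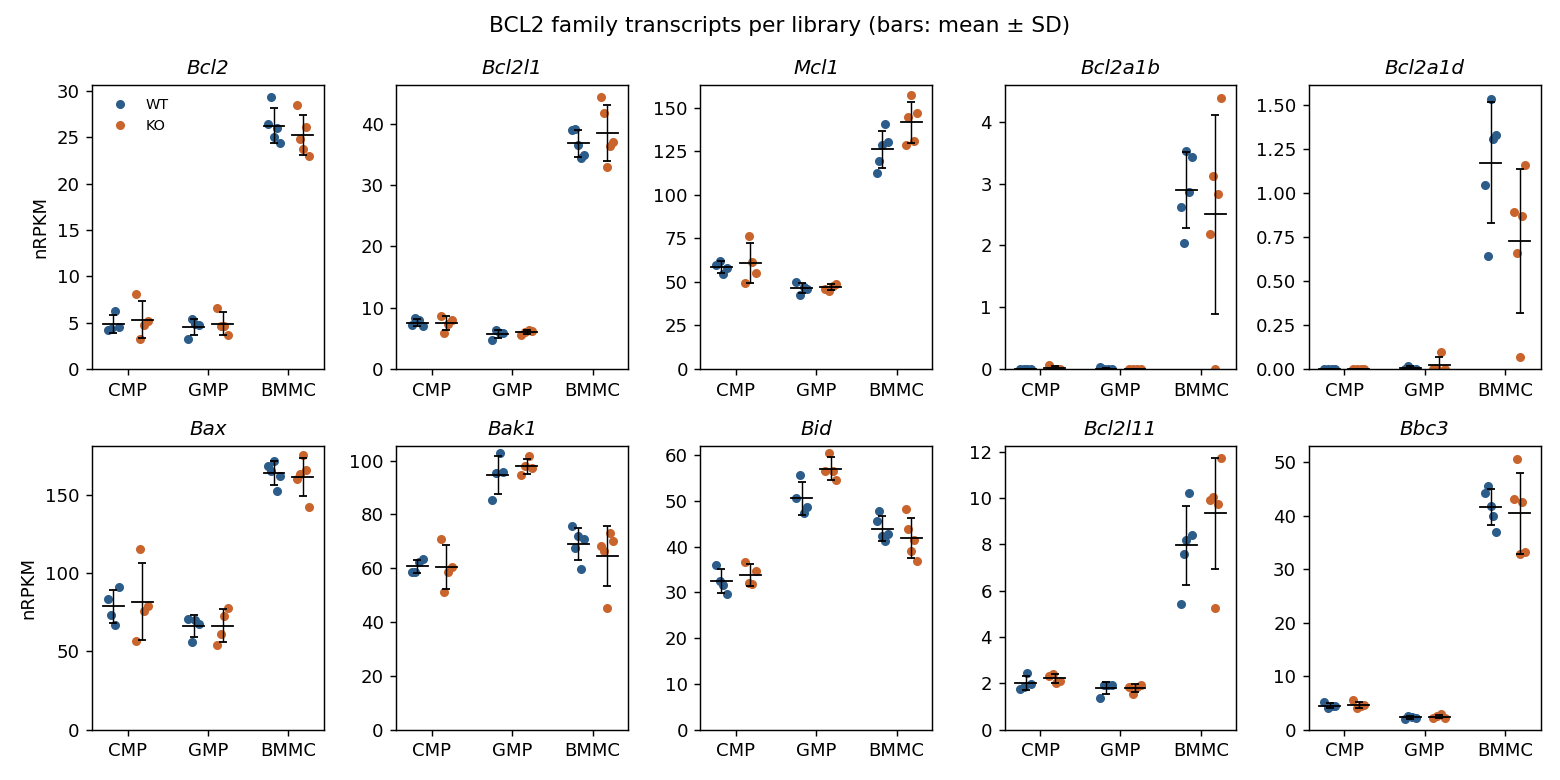
Level in nRPKM (linear axis from 0, 1 panel per gene) in CMPs, GMPs and BMMCs, with each point 1 library, blue for wild-type (WT) and orange for Prss57-/- (KO), and black bars for the mean ± SD. Bak1 and Bid were highest in GMPs, while the other 8 genes were highest in BMMCs, and the low points of Bcl2a1b, Bcl2l11 and Bak1 in Prss57-/- BMMCs are library 3.

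The pro-death genes were led by the effectors. In wild-type GMPs Bak1 stood at 94.8 ± 7.07 nRPKM (SD, n = 4), Bax at 66.1 ± 6.78 and Bid, whose product links death receptor signalling to the mitochondrion, at 50.5 ± 3.64. Bbc3, which encodes the p53 target PUMA, and Bcl2l11 were the lowest, at 2.29 ± 0.233 and 1.79 ± 0.268 nRPKM. Bax and Bak1 changed places between the cell types: wild-type BMMCs held Bax at 164 ± 7.40 nRPKM (n = 5) and Bak1 at 69.1 ± 5.99. In wild-type CMPs Bax ranged from 66.9 to 91.1 nRPKM and Bak1 from 58.5 to 63.3, so that all 4 Bax values lay above all Bak1 values.

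The order of Bax and Bak1 rests on the length constants behind the nRPKM. The constant for Bax was 0.669 times its annotated exon length and that for Mcl1 was 1.22 times, so the order of genes of like level depends on which length is used. The ratio of Bax to Bak1 was 0.701 ± 0.0969 in wild-type GMPs, 1.30 ± 0.174 in wild-type CMPs and 2.38 ± 0.128 in wild-type BMMCs. With annotated exon lengths it was 0.389, 0.720 and 1.32 in the same groups. The choice of length multiplies the ratio by the same factor in every group, so it bears only on which gene is the higher, and Bax stood above Bak1 in CMPs only with the deposited constants. In the Prss57-/- groups the ratio was 0.676 ± 0.0992, 1.41 ± 0.605 and 2.59 ± 0.732, with the highest CMP value (2.25) in library 2 and the highest BMMC value (3.87) in library 3.

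The first comparison asked whether the BCL2 family genes differ between GMPs and CMPs of the same genotype. In wild-type cells, 2 of the 8 members tested were higher in GMPs (Bak1 and Bid), 1 was lower (Bbc3) and 5 did not pass, at an adjusted p under 0.01 in edgeR's quasi-likelihood test. Over all 14967 genes tested, 10.8% were higher and 10.1% lower. The median log2 difference of the 8 members was -0.19, beside -0.02 over all genes tested.

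Bak1, a resident effector of the mitochondrial membrane, stood at 85.5, 95.2, 103 and 95.8 nRPKM in the wild-type GMP libraries and at 58.5, 58.5, 62.4 and 63.3 in the wild-type CMP libraries. The lowest GMP value lay well above the highest CMP value. The log2 fold change was 0.66 ± 0.10 (SE, n = 4 and 4, edgeR adjusted p = 0.000549). Bid stood at 50.7, 55.6, 47.3 and 48.6 nRPKM in GMPs and at 36.0, 32.6, 31.5 and 29.7 in CMPs, again without overlap. Its log2 fold change was also 0.66 ± 0.10 (edgeR adjusted p = 0.00065). Bid shares 17.7% of its exon bases with Bcl2l13 on the opposite strand. Whether the counting used the strand was not stated, and Bcl2l13 itself, another family gene, differed by 0.07 ± 0.09 on the log2 scale between the same libraries (adjusted p = 0.565).

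Bbc3 went the other way, with 1.98, 2.53, 2.37 and 2.26 nRPKM in wild-type GMPs and 5.08, 4.04, 4.40 and 4.50 in wild-type CMPs. Every CMP library was above every GMP library. The log2 fold change was -0.96 ± 0.15 (edgeR adjusted p = 0.000845). For Bak1, Bid and Bbc3 the exact two-sided permutation test on the nRPKM gave p = 0.0286, the smallest that 4 against 4 libraries allow. Any groups without overlap give this value, and so did Mcl1 and Bcl2l1, which did not pass in edgeR. Leaving out any 1 of the 8 libraries kept the 3 calls, with log2 fold changes of 0.64 to 0.72 for Bak1, 0.61 to 0.71 for Bid and -1.01 to -0.88 for Bbc3.

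**Figure D2:**
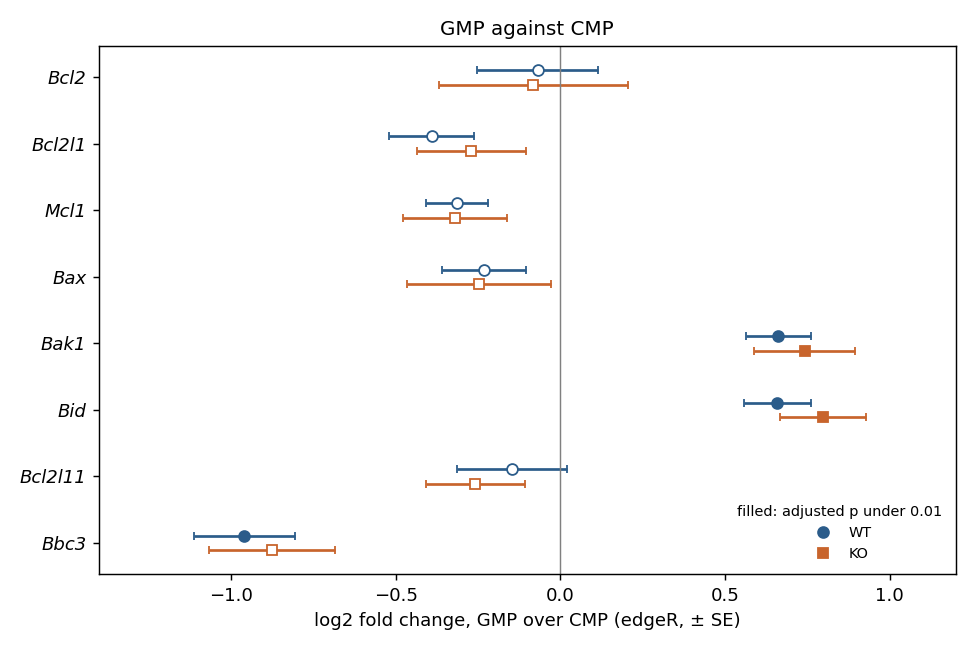
Log2 fold change of GMPs over CMPs (edgeR, with bars of ± 1 SE) for the 8 members tested, with circles for wild-type (WT) and squares for Prss57-/- (KO) libraries and filled symbols for an adjusted p under 0.01. Bak1 and Bid lay above 0 and Bbc3 below 0 in both genotypes, with Bbc3 filled in wild-type only.

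Among the pro-survival genes none passed the threshold in wild-type cells. Mcl1 stood at 49.96, 42.7, 47.3 and 45.8 nRPKM in GMPs and 59.7, 62.0, 54.3 and 57.9 in CMPs. Bcl2l1 stood at 4.80, 6.41, 5.80 and 5.80 nRPKM in GMPs and 7.11, 8.24, 7.97 and 6.95 in CMPs. Neither gene's groups overlapped, with every GMP library lower. The log2 fold changes were -0.31 ± 0.09 for Mcl1 (edgeR adjusted p = 0.0237) and -0.39 ± 0.13 for Bcl2l1 (edgeR adjusted p = 0.0364), both short of the threshold of 0.01. Bax, Bcl2l11 and Bcl2 overlapped between the groups, with log2 differences of -0.23, -0.15 and -0.07. Bcl2 spread from 4.25 to 6.24 nRPKM among the wild-type CMP libraries alone.

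The same comparison in Prss57-/- cells used none of these libraries. Of the 8 members tested, 2 were higher in GMPs, again Bak1 and Bid, and none was lower, beside 4.98% of 14959 genes higher and 4.85% lower. Bak1 stood at 94.7, 98.0, 102 and 97.4 nRPKM in Prss57-/- GMPs and at 70.9, 51.2, 58.6 and 60.5 in Prss57-/- CMPs. Bid stood at 56.5, 60.5, 56.5 and 54.6 nRPKM in GMPs and at 36.7, 32.0, 31.8 and 34.7 in CMPs. Both genes were separated without overlap, with log2 fold changes of 0.74 ± 0.15 for Bak1 (edgeR adjusted p = 0.00851) and 0.80 ± 0.13 for Bid (edgeR adjusted p = 0.00252). Neither call held with the replicate block (edgeR adjusted p = 0.0195 and 0.0106) or with scaling by library size alone (0.0564 and 0.0244).

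Bbc3 stood at 2.15, 2.58, 2.87 and 2.23 nRPKM in Prss57-/- GMPs and at 5.50, 4.10, 4.39 and 4.59 in Prss57-/- CMPs. The groups did not overlap, but the log2 fold change of -0.88 ± 0.19 missed the threshold (edgeR adjusted p = 0.0108). These calls depended on single libraries: with 1 of the 8 left out in turn, Bak1 passed in 2 cases, Bid in 3 and Bbc3 in 1. Without Prss57-/- CMP library 2 all 3 passed, at edgeR adjusted p = 0.0038 for Bak1, 0.00137 for Bid and 0.00564 for Bbc3. Mcl1 and Bcl2l11 were also separated without overlap in these libraries, with log2 differences of -0.32 ± 0.16 and -0.26 ± 0.15 that did not pass.

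Prss57-/- CMP library 2 was the lowest of all 8 CMP libraries for Bcl2 (3.25 nRPKM), Bcl2l1 (5.94) and Bak1 (51.2) and the highest for Mcl1 (76.2) and Bax (115). Its nRPKM summed over all genes to 785333, against at most 494881 in the other progenitor libraries. Its CMP marker sum was 2870 nRPKM, against 965 to 1583 in the other CMP libraries. Without it the Prss57-/- CMP means were 55.5 ± 6.05 nRPKM (SD, n = 3) for Mcl1 in place of 60.7 ± 11.5 (n = 4), and 70.5 ± 11.9 for Bax in place of 81.7 ± 24.4.

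For some members this spread ran with gene length. A slope of each library's values on gene length was fitted over all well-covered genes, and it ranged from -0.327 in Prss57-/- CMP library 2 to 0.263 in Prss57-/- CMP library 1. Bcl2, with a long transcript, stood at 3.25 nRPKM in the former and 8.04 in the latter, and Bax, with a short one, at 115 and 56.8. Bcl2l11, whose annotated exons are nearly as long as those of Bcl2, stood at 2.41 and 2.32 nRPKM in the same libraries. Its correlation with the slope over all CMP libraries was low (Pearson's r = 0.128, n = 8), with library 2 included. Outside library 2 it was higher where the slope was high. It stood at 2.44 nRPKM in wild-type CMP library 3 (slope 0.191), against 1.75 to 2.11 in CMP libraries with slopes of -0.0573 to 0.0284. In BMMCs Bcl2l11 ran with the slope (Pearson's r = 0.910, n = 10). In GMPs, wild-type library 1 had the lowest slope (-0.183) with Bcl2 at 3.28 nRPKM, and Prss57-/- library 1 the highest (0.144) with Bcl2 at 6.55. With this slope as a covariate, an alternative chosen after seeing the data, the wild-type calls rose to 5 of 8 by the addition of Mcl1 (log2 difference -0.33, edgeR adjusted p = 0.000164) and Bcl2l1 (-0.36, edgeR adjusted p = 0.0034), beside 50.2% of all genes tested. The Prss57-/- calls rose to 4 of 8, namely Bak1 (0.73), Bid (0.79), Bbc3 (-0.89) and Mcl1 (-0.28), beside 45.6% of all genes tested. Both shares of members are near those of all genes. The part of length or RNA quality in the values was not tested further.

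The other genes of the pathway were taken from a fixed list of 59 genes, of which 53 were tested between GMPs and CMPs. In wild-type cells 4 were higher in GMPs, 7 lower and 42 did not pass, beside 10.8% of all genes tested higher and 10.1% lower. Those higher were Apaf1 (log2 1.19), which assembles the apoptosome, the tumor necrosis factor receptor Tnfrsf1a (1.18), the caspase-8 regulator Cflar (1.12) and the death receptor kinase Ripk1 (0.65). Those lower included the BH3-only gene Bik (-2.44), the effector relative Bok (-1.96), the caspase gene Casp6 (-1.10), Bnip3l (-0.86), which acts in mitochondrial clearance, and the channel gene Vdac3 (-0.64). Bik and Bok had low levels, with means of 0.169 and 0.342 nRPKM in wild-type GMPs and 0.947 and 1.35 in wild-type CMPs. Neither passed in Prss57-/- cells. In Prss57-/- cells Tnfrsf1a (1.17) was the 1 higher gene, 2 were lower, among them Casp6 (-0.97), and 50 did not pass. Over all genes tested there, 4.98% were higher and 4.85% lower.

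The second comparison asked what the loss of NSP4 does to the family. None of the members passed in any cell type: 0 of 8 tested in GMPs, 0 of 8 in CMPs and 0 of 10 in BMMCs. Over all genes, 1 of 14689 (0.00681%) passed in GMPs and 1 of 14916 (0.0067%) in CMPs, in both cases Prss57 itself, and 0 of 13938 (0%) in BMMCs. At an unadjusted p under 0.05 edgeR gave 119, 76 and 332 genes, and DESeq2 called 4, 3 and 0. Chance alone gives such a p for a share of 0.05 of the genes tested, and each edgeR count lay below that share. With the length slope as a covariate the edgeR counts were 317, 471 and 934, of which only the last lay above it. None of the other pathway genes passed either, out of 53, 53 and 54 tested.

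The median log2 difference of the members between genotypes was 0.06 in GMPs, 0.03 in CMPs and -0.05 in BMMCs, beside 0.00, 0.03 and 0.01 over all genes tested. In GMPs the largest was that of Bid, at 0.18 ± 0.09 (SE, n = 4 and 4, edgeR unadjusted p = 0.0775, adjusted p = 0.99995). Prss57-/- GMPs held Bid at 54.6 to 60.5 nRPKM and wild-type GMPs at 47.3 to 55.6, so that the groups overlapped narrowly (exact two-sided permutation p = 0.0571). In CMPs the largest was that of Bcl2, at 0.12 ± 0.28, with Prss57-/- values of 3.25 to 8.04 nRPKM that spanned the whole wild-type range of 4.25 to 6.24.

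**Figure D3:**
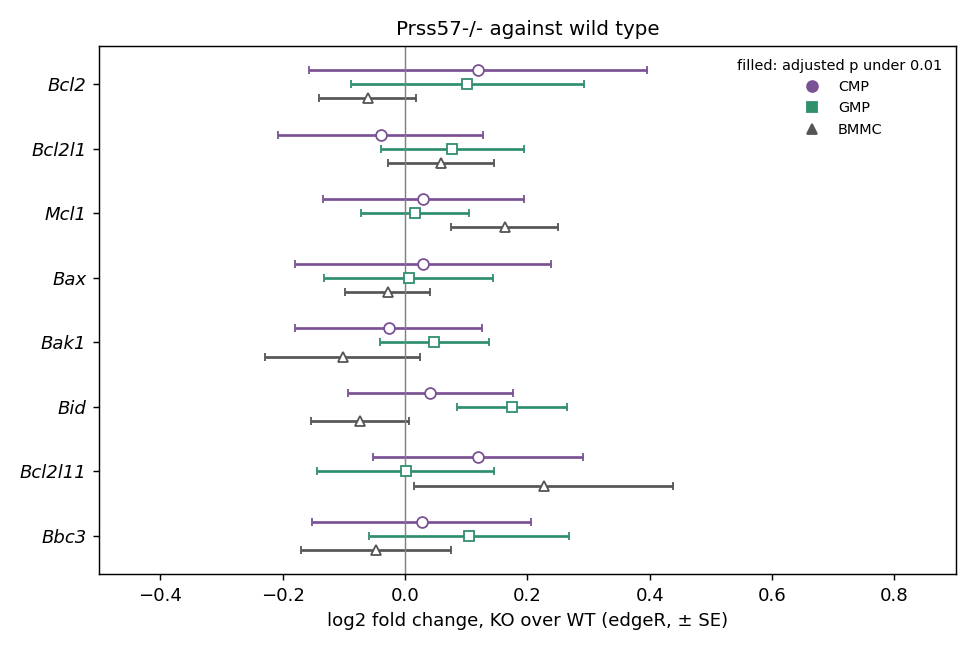
Log2 fold change of Prss57-/- (KO) over wild-type (WT) libraries (edgeR, with bars of ± 1 SE) for the 8 members tested in all cell types, with circles for CMPs, squares for GMPs and triangles for BMMCs. No symbol is filled, as none passed an adjusted p under 0.01, and the largest differences were those of Bcl2l11 in BMMCs (0.23) and Bid in GMPs (0.18).

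In BMMCs Mcl1 stood at 113, 119, 129, 140 and 130 nRPKM in wild-type libraries and at 129, 145, 157, 131 and 147 in Prss57-/- libraries. The Prss57-/- values tended to the upper side, but the groups overlapped between 129 and 140. The log2 difference was 0.16 ± 0.09 (SE, n = 5 and 5, edgeR unadjusted p = 0.0904, adjusted p = 0.999877). The exact permutation test on the nRPKM gave p = 0.0476 before any correction, 1 of 30 such tests of the members between genotypes. The highest value, 157 nRPKM, was that of library 3, and without it the Prss57-/- mean was 138 ± 9.18 in place of 142 ± 11.8, beside 126 ± 10.7 in wild-type BMMCs. Bcl2l11 stood at 5.43 to 10.2 nRPKM in wild-type BMMCs and at 9.92, 10.0, 5.26, 9.74 and 11.7 in Prss57-/- BMMCs, the lowest again being library 3. Its log2 difference was 0.23 ± 0.21, and 0.37 ± 0.14 without library 3 (edgeR unadjusted p = 0.0254, adjusted p = 0.63). With all 10 libraries and the length slope as a covariate it was 0.14 ± 0.09 (edgeR unadjusted p = 0.173, adjusted p = 0.698). Bcl2l11 ran with that slope in BMMCs (Pearson's r = 0.910, n = 10). Wild-type library 1 (5.43 nRPKM) and Prss57-/- library 3 had the lowest BMMC slopes, -0.0368 and -0.0637.

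An interaction term tested whether the genotype difference itself varied with the progenitor type. None of the 8 members passed, and 0 of 15900 genes (0%) did, with 169 at an unadjusted p under 0.05 and 0 called by DESeq2. The largest interaction among the members was 0.13 ± 0.15 on the log2 scale, for Bid. The standard errors of the genotype differences ran from 0.07 to 0.28 for the 8 members outside the Bcl2a1 copies, so that a small genotype difference was not detectable.

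BMMCs are set beside GMPs, the cells they were grown from, with the confounding named above. In both genotypes 8 of the 10 members were higher in BMMCs and 2 lower. Over all genes, 37.5% of 14754 were higher and 36.9% lower in wild-type libraries, and 32.2% of 14929 were higher and 31.1% lower in Prss57-/- libraries. Bcl2a1b and Bcl2a1d were tested only through their BMMC counts, so the 8 members detected in both cell types carry the count: 6 higher and 2 lower in each genotype.

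Bbc3 showed the largest difference of those 8. It stood at 44.2, 45.5, 41.9, 39.9 and 37.0 nRPKM in wild-type BMMCs and at 43.2, 50.7, 32.8, 42.5 and 33.2 in Prss57-/- BMMCs, against at most 2.87 in any GMP library. The gap between the cell types was far wider than the spread within either. The log2 fold change was 4.09 ± 0.11 in wild-type and 3.94 ± 0.18 in Prss57-/- cells (edgeR adjusted p = 3.62e-11 and 1.23e-07). With CMPs, which lay between, the order of Bbc3 was GMP, CMP and BMMC in both genotypes, without overlap between neighbours.

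Among the pro-survival genes, Bcl2l1 was higher in BMMCs by 2.60 ± 0.10 on the log2 scale in wild-type and 2.58 ± 0.11 in Prss57-/- cells. Bcl2 was higher by 2.44 ± 0.14 and 2.27 ± 0.17, and Mcl1 by 1.35 ± 0.09 and 1.50 ± 0.10. All 3 genes were separated without overlap in both genotypes. Bcl2l11, the gene of the mast cell death regulator BIM, was higher by 2.06 ± 0.17 and 2.29 ± 0.22, and the effector Bax by 1.22 ± 0.09 and 1.19 ± 0.12. For these genes and Bbc3 the exact permutation test gave p = 0.0159 in both genotypes, the smallest that 5 against 4 libraries allow.

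Bak1 and Bid went the other way. Bak1 stood at 59.7 to 75.5 nRPKM in wild-type BMMCs, below all wild-type GMP libraries, with a log2 fold change of -0.55 ± 0.09 (edgeR adjusted p = 0.000134). In Prss57-/- cells it was -0.70 ± 0.14 (edgeR adjusted p = 0.0011), with 66.5 to 73.0 nRPKM in 4 BMMC libraries and 45.3 in library 3. Bid stood at 41.2 to 47.8 nRPKM in wild-type BMMCs and overlapped with GMPs at 47.3 to 55.6. Its log2 fold change of -0.30 ± 0.08 passed (edgeR adjusted p = 0.00623), but passed in only 4 of the 9 fits that left out 1 library, where the adjusted p reached 0.0227. In Prss57-/- cells Bid was lower without overlap, with a log2 fold change of -0.54 ± 0.10 (edgeR adjusted p = 0.000633). Bcl2l13, which shares exon bases with Bid, was itself lower in BMMCs, with a log2 fold change of -1.09 ± 0.08 in wild-type libraries. Its part in the Bid values was not tested.

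The BMMC libraries also held transcripts of other cells. The 8 macrophage and monocyte markers summed to 10674 to 20600 nRPKM in 9 of the 10 BMMC libraries. Library 3 of the Prss57-/- group stood apart with 1121, together with the lowest dendritic cell sum (70.9 against 825 to 1785) and the highest mast cell sum (74640 against 24887 to 46377). Its basophil sum (107 against 307 to 611) and neutrophil sum (25.3 against 41.8 to 180) were the lowest too. The GMP marker sum (1516 against 894 to 1416) and the CMP marker sum (1933 against 1250 to 1588) were the highest in this library. It was also the lowest of the 10 for Bcl2l1, Bcl2a1b, Bcl2a1d, Bcl2l11, Bak1 and Bbc3, and the highest for Mcl1 and Bax. Without it the Prss57-/- BMMC means were 69.5 ± 2.75 nRPKM (SD, n = 4) for Bak1 in place of 64.6 ± 11.1 (n = 5), 10.4 ± 0.913 for Bcl2l11 in place of 9.34 ± 2.41, and 42.4 ± 7.17 for Bbc3 in place of 40.5 ± 7.54. The part of the other cells in the member values was not tested.

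The Bcl2a1 copies are the members for which that library mattered most. The mouse genome carries several near-identical copies of the A1 gene, and 79.2% of the 50-base stretches of Bcl2a1b and 79.5% of those of Bcl2a1d also occur in other transcripts. Because only uniquely aligned reads were counted, both are undercounted and their split is uncertain. They lie on GRCm38 chromosome 9, Bcl2a1b on the plus strand at 89199209-89207827 and Bcl2a1d on the minus strand at 88723285-88731914. The stretches before their start sites are shown because the copies were read together in BMMCs and the sequences show how alike they are. They are from RefSeq on GRCm38.p6, 5′ to 3′ on the gene's strand, outside annotated exons, at chr9:89199085-89199172 for Bcl2a1b and chr9:88731915-88731994 for Bcl2a1d, with those of the unlisted copies Bcl2a1a at chr9:88956776-88956863 and Bcl2a1c at chr9:114329885-114329968. Capitals mark GAGGAAGT, a core like that bound by the myeloid ETS factor PU.1.
Bcl2a1a: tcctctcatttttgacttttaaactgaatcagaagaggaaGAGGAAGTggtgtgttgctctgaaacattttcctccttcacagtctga
Bcl2a1b: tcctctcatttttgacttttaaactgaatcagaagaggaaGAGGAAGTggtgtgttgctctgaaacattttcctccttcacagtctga
Bcl2a1c: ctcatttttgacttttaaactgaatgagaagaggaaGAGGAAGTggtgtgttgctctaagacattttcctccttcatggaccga
Bcl2a1d: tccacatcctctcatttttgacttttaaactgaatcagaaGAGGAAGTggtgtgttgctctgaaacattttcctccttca

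The stretches of Bcl2a1a and Bcl2a1b were identical over all 88 bases, and those of Bcl2a1b and Bcl2a1c matched at 77 of 84. Bcl2a1d, lined up with Bcl2a1b at the capitals without a gap, matched at 60 of 80 bases. Bcl2a1d lacks the gaggaa that stands directly before the capitals in Bcl2a1b. Without a gap the bases before the capitals are therefore out of step, and the 60 of 80 understates how alike the 2 stretches are. The longest unbroken run that Bcl2a1b and Bcl2a1d share in the 250 bases before their starts was 84 bases. GAGGAAGT began 148 bases before the RefSeq start of Bcl2a1b and 104 before that of Bcl2a1d. Searched on both strands in the 250 bases before each start, it occurred in 2.44% of 32851 promoters and, of the 10 members, in Bcl2a1b, Bcl2a1d and Bak1, in the last as its reverse complement ACTTCCTC within an annotated exon. CACGTG, the E-box core, occurred in the windows of Bax and of 1 of the 3 start sites of Bbc3, against 6.02% of all promoters. AGATAA, the letters of a GATA site, occurred in the window of 1 of the 3 start sites of Bcl2l1 (9.99% of all), and TTCNNNGAA, the letters of a STAT site, in none (7.02% of all). A gene with more start sites has more windows in which to match. These matches describe letters and not binding.

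Bcl2a1b had 45, 33, 72, 52 and 66 reads in the wild-type BMMC libraries, and 37, 54, 0, 65 and 86 in the Prss57-/- BMMC libraries. Bcl2a1d had 19, 11, 33, 25 and 27 reads in wild-type and 16, 12, 1, 21 and 24 in Prss57-/- BMMCs. The reads were present in 9 of 10 libraries and all but missing from Prss57-/- library 3. Pooled over libraries, wild-type BMMCs had 268 reads of Bcl2a1b against 1 in wild-type GMPs, a ratio of 418 per library size with a counting interval (95%) of 74.4 to 16565. In Prss57-/- cells 242 reads stood against 0, which made Bcl2a1b at least 118-fold higher in BMMCs, against a floor of 3 reads over the group. Bcl2a1d had 115 reads against 1 in wild-type cells (ratio 179, interval 31.5 to 7143) and 74 against 4 in Prss57-/- cells (ratio 27.1, interval 10.1 to 102). These intervals cover counting error only.

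**Figure D4:**
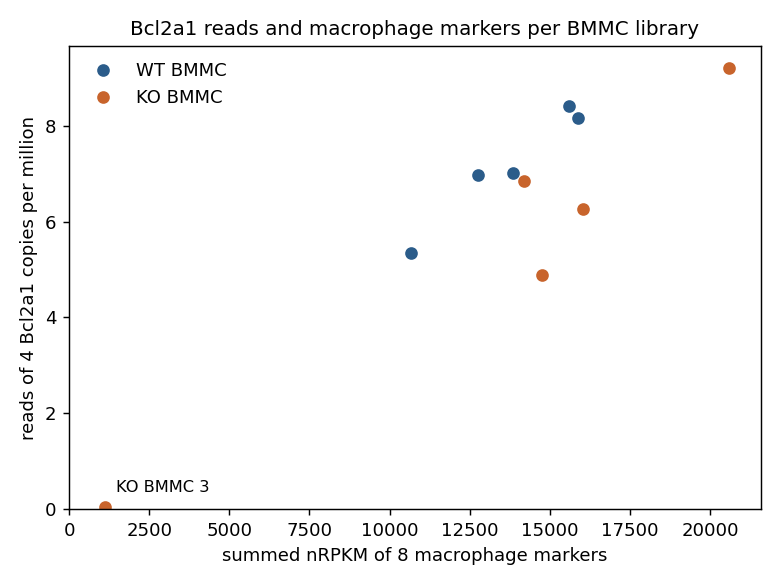
Reads of the 4 Bcl2a1 copies, summed, as counts per library size (CPM, vertical axis) against the summed nRPKM of the 8 macrophage and monocyte markers (horizontal axis) in each BMMC library, blue for wild-type (WT) and orange for Prss57-/- (KO). Prss57-/- library 3 sits near 0 on both axes, and the other 9 libraries lie between 4.88 and 9.20 CPM.

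The copies Bcl2a1a and Bcl2a1c, which belong to the wider pathway list, had 388 and 88 reads in wild-type BMMCs and 0 in wild-type GMPs, at least 202-fold and 45.7-fold higher. Summed over the 4 copies, Prss57-/- library 3 had 1 read, or 0.0537 CPM, whereas the other 9 BMMC libraries had 110 to 242 reads, or 4.88 to 9.20 CPM. All 4 copies were thus low together in a library that differed from the others in many ways. It was low in macrophage, dendritic cell, basophil and neutrophil markers and high in mast cell, GMP and CMP markers. It also had the fewest counted reads. Which of these traits goes with the copies was not tested. A comparison of genotypes for these copies rests on that library: without it the Prss57-/- mean of Bcl2a1b was 3.13 ± 0.923 nRPKM (SD, n = 4), with it 2.50 ± 1.61 (n = 5), beside 2.90 ± 0.615 in wild-type BMMCs.

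The make-up of the pro-survival members in BMMCs stood apart from that in both progenitors, in each genotype. Mcl1 made up 81.8 ± 3.15% (SD, n = 4) of the summed pro-survival nRPKM in wild-type GMPs, 82.5% in wild-type CMPs and 65.2% in wild-type BMMCs. In the Prss57-/- groups the shares were 81.1%, 82.1% and 67.8%. Bcl2l1 made up 10.1% in wild-type GMPs, 10.7% in CMPs and 19.1% in BMMCs, and Bcl2 8.06%, 6.85% and 13.6%. The fall in the Mcl1 share in BMMCs thus stood beside higher shares of both Bcl2l1 and Bcl2, although the level of Mcl1 itself was higher there.

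**Figure D5:**
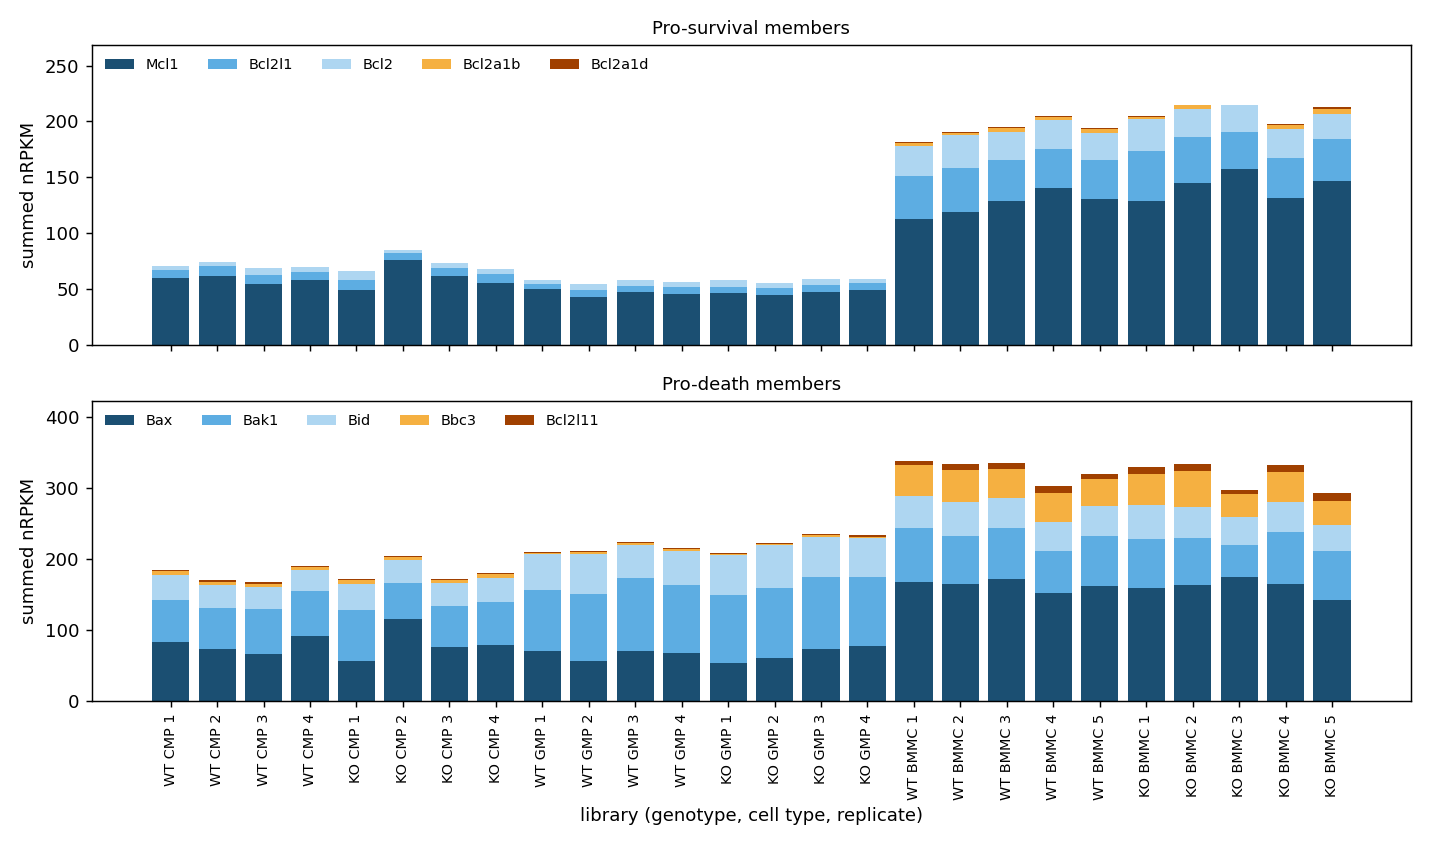
Summed nRPKM of the 5 pro-survival members (top) and the 5 pro-death members (bottom) as stacked bars, 1 bar per library, in the order CMP, GMP and BMMC with wild-type (WT) before Prss57-/- (KO). Mcl1 takes most of every pro-survival bar, the pro-survival bars are lowest in GMPs, and Bbc3 makes up 12.8% of the pro-death sum in wild-type BMMCs against 1.06% in wild-type GMPs.

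The summed pro-survival nRPKM was 56.7 ± 1.68 in wild-type GMPs, 70.9 ± 2.68 in wild-type CMPs and 193 ± 8.51 in wild-type BMMCs. The summed pro-death nRPKM was 216 ± 6.53, 178 ± 11.2 and 326 ± 14.7. The ratio of the former to the latter was thus lowest in GMPs, at 0.263 ± 0.00885, and 0.399 ± 0.0322 in CMPs and 0.594 ± 0.0524 in BMMCs. Prss57-/- groups gave 0.257 ± 0.014, 0.402 ± 0.0241 and 0.660 ± 0.0588, and with annotated exon lengths the wild-type values were 0.339, 0.542 and 0.826. The order of the 3 cell types was the same in both genotypes and with both lengths, with no overlap between groups of one genotype. The ratio is a sum of transcript levels and is given as a description, without a test.

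Of the wider pathway list, 55 genes were tested between BMMCs and GMPs. In wild-type cells 25 were higher, 18 lower and 12 did not pass, and in Prss57-/- cells 21, 14 and 20. Over all genes tested, 37.5% were higher and 36.9% lower in wild-type cells, and 32.2% and 31.1% in Prss57-/- cells. The largest higher ones beside the Bcl2a1 copies were the BH3-only genes Pmaip1, which encodes NOXA (log2 4.85 in wild-type, 4.60 in Prss57-/-), and Bmf (3.44 and 3.36), the stress transcription factor Ddit3 (4.52 and 4.45) and the death receptor Fas (3.35 and 3.26). Those lower were led by Bcl2l14 (-4.15 and -4.74), Birc5 (-2.91 and -3.47), which encodes the mitotic protein survivin, and the mitochondrial nuclease Endog (-2.64 and -2.52). Bcl2l12 (-2.28 and -2.05), the nuclease Dffb (-2.22 and -1.86) and the mitochondrial protease Htra2 (-1.99 and -1.82) followed. Of the 17 further BCL2 family genes, 14 were tested, with 7 higher and 4 lower in wild-type cells.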

How the data were processed

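RNA from sorted GMPs and CMPs and from cultured BMMCs was sequenced as single-end reads by the authors, aligned to GRCm38 with GSNAP in HTSeqGenie, and uniquely aligned reads within exons were counted. The authors deposited, for each library, raw counts per gene and normalized RPKM, the count divided by a length constant and a size factor. Alignment and counting were not repeated. The members, the pathway list and the marker lists were chosen with earlier results of these data known. The members and Prss57 were named in every comparison, and of the pathway list up to 6 genes in each direction per cell type comparison, those past the threshold with the largest log2 fold change. Some genes that this rule names are not reported here. Libraries were grouped by the labels. The paper's legends describe the RNA sequencing replicates as biological, 4 per genotype for GMPs and 5 for BMMCs. Whether each library came from a separate mouse is not stated, so p-values measure the spread between these libraries. The study's criterion in limma also asked for a 2-fold change, used here as an alternative.

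Counts were tested with edgeR 4.0.16 in R 4.3.3 (TMM, filterByExpr, robust quasi-likelihood fit), with p-values adjusted over every gene tested (Benjamini-Hochberg) and a threshold of 0.01. Each comparison was fitted on its own libraries. Single genes were also tested on nRPKM with exact permutation tests (scipy 1.17.1). Alternatives were limma 3.58.1, DESeq2 1.42.0, other scalings, no filter, a replicate block and leaving out libraries. The scripts were tested on simulated data. Positions are from GENCODE M21, and promoters, matched by symbol for all 10 members, from RefSeq. Protein sequences were not used here.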

Additional observations from a re-analysis of the deposited data

Results flagged for a closer look

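Of 56 groups of member values tested for a library far from the others, 7 stood out by Dixon's criterion at the 95% level. Chance alone gives about 1 in 20 such groups, a rate that does not apply to 4 of the 7, which are named last. Bcl2 stood at 6.24 nRPKM in wild-type CMP library 3, against 4.25 to 4.48 in the other 3, and that library had a length slope of 0.191. Bcl2l11 stood at 1.39 nRPKM in wild-type GMP library 1, against 1.92 to 1.93 in the other 3, with a length slope of -0.183. Bak1 stood at 45.3 nRPKM in Prss57-/- BMMC library 3, against 66.5 to 73.0 in the other 4, in the library with a macrophage and monocyte marker sum of 1121 nRPKM. The other 4 were single progenitor libraries with a few reads of a Bcl2a1 copy in a group otherwise at 0. The criterion always flags such a group, whatever the number of reads. Bcl2a1b stood at 0.0562 nRPKM (3 reads) in Prss57-/- CMP library 1 and at 0.0260 (1 read) in wild-type GMP library 1. Bcl2a1d stood at 0.0936 nRPKM (4 reads) in Prss57-/- GMP library 3 and at 0.0191 (1 read) in wild-type GMP library 2.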

How the results depend on the processing

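Of 362 values of called members under the alternatives none changed sign and 32 lost the call, 9 of them under the added 2-fold criterion. Of 854 values of members not called, 74 changed sign, none of these past the threshold, from log2 differences of at most 0.12 in size to ones of at most 0.27, and 14 gained a call. Between genotypes the count of genes in GMPs was 2 in place of 1 at an adjusted p under 0.05 and with the length slope as a covariate, 4 by DESeq2, and 1 to 2 with 1 library left out (2 without wild-type GMP library 1). In CMPs it was 3 by DESeq2 and 2 with the slope.

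Between wild-type GMPs and CMPs, 3140 genes became 1918 with a 2-fold change, 5664 at 0.05, 4947 by DESeq2, 7518 with the slope and 2075 (without CMP library 1) to 5128 (without GMP library 1) with 1 library left out. The 3 called members became 0 with a 2-fold change and 5 at 0.05 and with the slope. Between Prss57-/- GMPs and CMPs, 1470 genes became 3222 at 0.05, 3199 by DESeq2, 3750 with all 26 libraries in 1 fit, 6814 with the slope and 798 (without GMP library 3) to 2895 (without CMP library 1). The 2 called members became 0 with a 2-fold change or library size alone, 1 without the low-count filter, 4 with the slope and 0 to 3 with 1 library left out. The cause was not tested.

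Scaling by library size alone moved the median log2 difference over all genes between wild-type GMPs and CMPs from -0.02 to -0.16, and the split from 1623 higher and 1517 lower to 1182 and 2354. In Prss57-/- cells the split moved from 745 and 725 to 427 and 769. Between BMMCs and GMPs it moved from 5526 and 5451 to 4892 and 6197 in wild-type and from 4803 and 4640 to 4113 and 5416 in Prss57-/- cells. Whether replicate numbers shared between groups pair the libraries cannot be told from so few libraries. Deviations of libraries with the same number correlated at -0.308 to 0.176 in GMPs between genotypes, with a mean of -0.0141, beside 0.00898 for other numbers. Between wild-type GMPs and CMPs the mean was 0.133 for the same number and -0.0473 for others. Between Prss57-/- GMPs and CMPs the means were 0.183 (range 0.0122 to 0.528) and -0.0589. In no comparison did more than 2 libraries correlate best with their own number. With the replicate block the calls between Prss57-/- GMPs and CMPs were 1396 genes and 0 members (Bak1 adjusted p = 0.0195, Bid 0.0106), and those between wild-type GMPs and CMPs 3631 genes and 3 members. The number of libraries and, for the Bcl2a1 copies, the read counts limit what could be detected.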

Other observations

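Genes whose log2 levels ran among the most like those of Bbc3, Bak1 and Bid over the 16 progenitor libraries were looked up among 9089 genes, as a description with libraries as points that share cell type, depth and length slope. For Bbc3 they were Dlg3 (Pearson's r = 0.981) and Kcnn4 (0.971). For Bak1 they were Coro7 (0.993), Mapkapk2 (0.992) and Selplg (0.992), and for Bid Atp6v0a1 (0.974), Mical1 (0.973) and Il1rl2 (0.971).

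Between wild-type and Prss57-/- BMMCs, 1031 of 14162 genes had an unadjusted p under 0.05 in edgeR without Prss57-/- library 3, against 332 of 13938 with it. Chance alone gives such a p for a share of 0.05 of the genes tested, and the former count lies above that share and the latter below it. In both cases 0 genes passed the adjusted threshold.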
